A study of Homo sapiens with 12 samples.

Results

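The NRF2 antioxidant genes described here are 9 listed genes: the transcription factor gene *NFE2L2*, which encodes NRF2, its inhibitor *KEAP1*, and the target genes *GCLC*, *GCLM*, *NQO1*, *HMOX1*, *TXNRD1*, *SRXN1* and *OSGIN1*. They were matched by symbol to Ensembl identifiers, and all 9 were found among the 58302 gene identifiers of the count table and among the 15826 genes with enough counts to be tested. RNA-seq of oral squamous cell carcinoma cells was performed on 4 libraries, 2 with 100 nM rapamycin and 2 untreated controls, numbered 1 and 2 in each treatment. m6A was mapped by MeRIP-seq, in which RNA fragments are pulled down with an antibody against N6-methyladenosine, in HSC3 and CAL33 cells with rapamycin and as untreated controls, with 1 pair of immunoprecipitated and input RNA for each cell line and treatment. HSC3 and CAL33 are established human oral squamous cell carcinoma lines, and no genetic change is given for any group.

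In the RNA-seq labels the rapamycin libraries are HSC3 and the controls CAL33, whereas in the MeRIP-seq libraries number 1 is HSC3 and number 2 is CAL33 in each treatment. By the labels, treatment and cell line cannot be told apart in the RNA-seq data. The libraries grouped by number instead: across 15826 genes, log2 CPM (CPM being counts scaled to library size) correlated at 0.97 and 0.96 between same-numbered libraries and at 0.76 to 0.81 between the others. Rapamycin was compared with control within the numbers, since the libraries were to be paired by number, and no cell line was assigned to a number. Library totals ranged from 18492273 to 23763098 counts. Of 8 genes listed as squamous markers, *CDH1*, *EPCAM* and *SFN* were counted at 157 CPM or more in every library. The other 5 (*KRT5*, *KRT14*, *KRT17*, *KRT6A*, *TP63*) were lower in number 1 than in number 2 in each treatment. The basal keratin *KRT5* had 116 and 740 counts in the number 1 libraries against 5956 and 40305 in the number 2 libraries, and *KRT14* had 0 and 0 against 23 and 221. Leukocyte markers did not exceed 3 counts, whereas the endothelial marker *CDH5* reached 758 and the fibroblast marker *PDGFRB* 281. Nothing states that the libraries came from separate cultures, so p-values cover only these samples. In the fit with the number as a block they rest on how far the 2 pairs disagree, together with a spread estimated over all genes.

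NRF2 is a transcription factor that is made continuously and destroyed continuously while cells are unstressed. KEAP1 holds it for ubiquitination by a CUL3 ligase. Oxidants and electrophiles modify cysteines of KEAP1, whereupon NRF2 accumulates, pairs with a small MAF protein and binds antioxidant response elements in the genes of glutathione synthesis, thioredoxin reduction, NADPH supply and detoxification. The autophagy receptor p62 (*SQSTM1*) also binds KEAP1, and mutations that free NRF2 are known from squamous carcinomas.

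With rapamycin, *HMOX1* and *TXNRD1* rose and *KEAP1* fell, and each did so within both numbered pairs. The other 6 members did not pass the threshold. Of these, *NFE2L2* was higher with rapamycin in both pairs, whereas *GCLC*, *GCLM*, *NQO1*, *SRXN1* and *OSGIN1* were lower with rapamycin in number 1 and higher in number 2. Of all 15826 tested genes, 8.15% passed the threshold (adjusted p under 0.05 from edgeR's quasi-likelihood test with the number as a block and Benjamini-Hochberg adjustment over all genes), 4.65% higher and 3.50% lower. Among the 1290 genes that passed, 57.1% were higher with rapamycin, and 69.1% of those called were higher with upper-quartile normalization. Without the block, 0 of 15826 genes passed (446 at an unadjusted p under 0.05), and all 3 member calls were lost. Of the 8 squamous markers, 3 also fell with rapamycin (*KRT5*, *KRT6A* and *KRT14*). *KRT14* had 0 counts in both number 1 libraries, so its fall rests on number 2, and DESeq2 called only *KRT5* and *KRT6A*. The summed level of the list ranged from 1082 to 4783 CPM in control and from 879 to 3422 with rapamycin. The part of these markers in the changes with rapamycin was not tested.

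*HMOX1* (ENSG00000100292) encodes haem oxygenase 1, which breaks haem down to biliverdin, iron and carbon monoxide. It was measured at 19.0 CPM in control 1 and 33.0 in rapamycin 1, and at 2.07 CPM in control 2 and 7.95 in rapamycin 2. Both number 1 libraries lay above both number 2 libraries, so the treatments overlapped, but rapamycin was the higher of each pair, by 1.73-fold in number 1 and 3.72-fold in number 2. Over both pairs it rose 2.5-fold, by 1.32 on the log2 scale (standard error 0.39, adjusted p = 0.0334, edgeR). The call was lost with DESeq2 (adjusted p = 0.0922). Without either rapamycin 2 or control 2 the log2 fold change rested on number 1 alone and was 0.80.

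*TXNRD1* (ENSG00000198431), the cytosolic thioredoxin reductase, was measured at 872 CPM in control 1 and 1365 in rapamycin 1, and at 274 in control 2 and 578 in rapamycin 2. As for *HMOX1*, both number 1 libraries were above both number 2 libraries. The rise was 1.57-fold within number 1 and 2.11-fold within number 2, with a log2 fold change of 0.86 (standard error 0.26, adjusted p = 0.0421 from edgeR). The annotation holds an antisense gene, *TXNRD1-AS1*, inside *TXNRD1*, and the use of strand in counting is not stated.

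*KEAP1* (ENSG00000079999), the sensor that targets NRF2 for degradation, was the member whose treatments did not overlap. It was measured at 67.0 and 79.9 CPM in controls 1 and 2 and at 36.5 and 41.8 in rapamycin 1 and 2. The mean was 73.4 ± 9.17 CPM (SD, n = 2) in control and 39.2 ± 3.71 (SD, n = 2) with rapamycin. It thus stood at 0.55 of control in number 1 and 0.52 in number 2, with −0.90 ± 0.27 on the log2 scale (± standard error, adjusted p = 0.0388 from edgeR). With upper-quartile normalization the log2 fold change was −0.83 and the call was lost (adjusted p = 0.0619). Over all tested genes, 16.5% had both rapamycin libraries below both controls. Because RNA was measured in bulk, fewer cells of a type and less RNA per cell cannot be told apart.

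**Figure D1:**
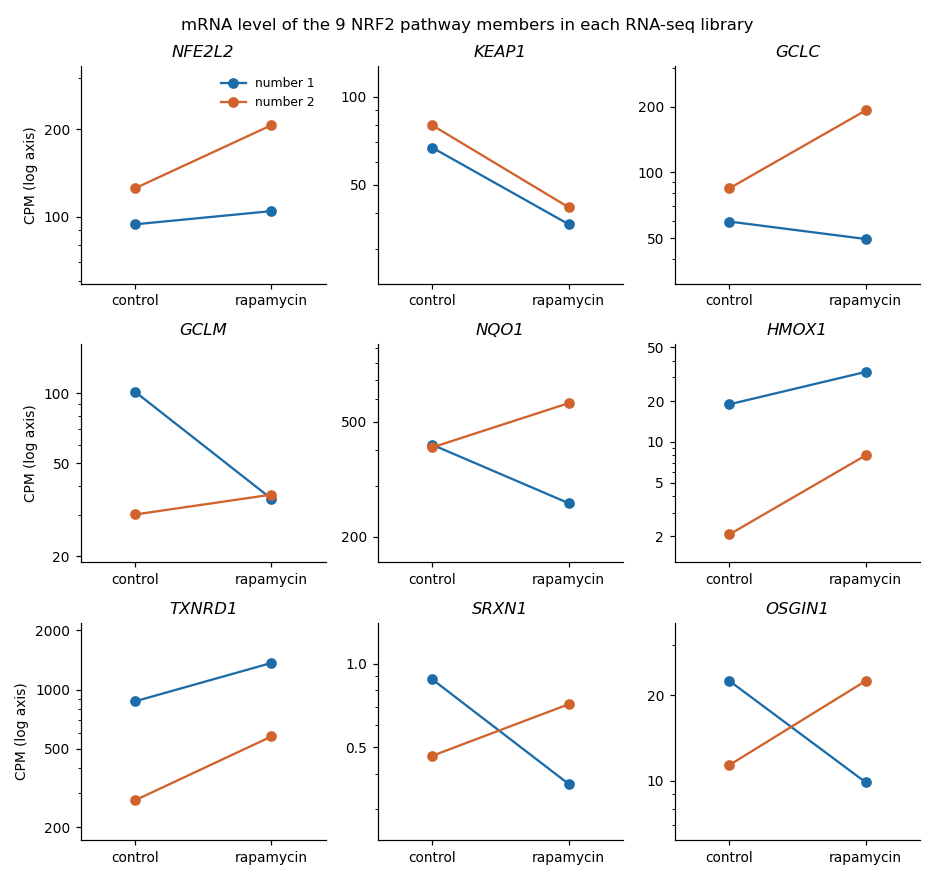
CPM of each of the 9 members on a log axis, by treatment, with a line joining the control and rapamycin libraries of the same number (number 1 blue, number 2 orange). The lines for *KEAP1* fall together, those for *HMOX1* and *TXNRD1* rise together with number 1 above number 2, and those for *GCLC*, *GCLM*, *NQO1*, *SRXN1* and *OSGIN1* run in opposite directions.

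The promoters of *TXNRD1* and *KEAP1*, which moved in opposite directions, both hold the core letters of an antioxidant response element, and so does that of *GCLM*. The RefSeq promoter table (GRCh38.p14, 250 bases before to 50 after each gene start) held 11 windows for 8 of the 9 members, *HMOX1* having none. TGACNNNGC was searched on both strands. It was present in 4 of these 11 windows, from 3 of the 8 members, against 13.3% of the 35116 windows in the table. Bases outside the windows were not searched. The stretches are shown 5′ to 3′ on the strand that reads TGAC, with the 9 matching letters in capitals, to show how the matches differ.
GCLM, chr1:93909446-93909474, plus strand: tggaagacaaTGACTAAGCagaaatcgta
KEAP1, chr19:10502784-10502812, plus strand: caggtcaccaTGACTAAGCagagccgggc
KEAP1, chr19:10502807-10502835, minus strand: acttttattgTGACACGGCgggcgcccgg
TXNRD1, chr12:104215670-104215698, plus strand: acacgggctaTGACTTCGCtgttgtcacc
TXNRD1, chr12:104215761-104215789, minus strand: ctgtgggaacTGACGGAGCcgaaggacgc
TXNRD1, chr12:104286920-104286948, minus strand: agagtcagaaTGACAAAGCagaaatccac
*GCLM* and *KEAP1* share the same 9 letters, TGACTAAGC, which 0.103% of all windows hold, at 34 and 31 bases before the annotated starts. The third stretch of *TXNRD1* lies before a second annotated start of that gene. A match of these letters is a description of the sequence, not a site of NRF2 binding.

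*NFE2L2* (ENSG00000116044) was measured at 94.2 and 125 CPM in controls 1 and 2 and at 105 and 207 in rapamycin 1 and 2. Rapamycin was the higher library in each pair, with the larger difference in number 2 (log2 difference 0.15 in number 1 and 0.72 in number 2). The log2 fold change of 0.44 (standard error 0.26) did not pass the threshold (adjusted p = 0.315 from edgeR).

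Neither of the glutathione synthesis genes among the members passed the threshold. GCLC and GCLM are the catalytic and modifier subunits of glutamate-cysteine ligase, the rate-limiting enzyme of glutathione synthesis. *GCLC* (ENSG00000001084) was measured at 59.5 and 84.5 CPM in controls 1 and 2 and at 49.5 and 192 in rapamycin 1 and 2. *GCLM* (ENSG00000023909) was measured at 101 and 30.2 CPM in controls 1 and 2 and at 35.2 and 36.7 in rapamycin 1 and 2. For *GCLC* the rapamycin 2 library stood above the rest, and for *GCLM* the control 1 library did, while its other 3 libraries lay between 30.2 and 36.7 CPM. The log2 difference within the pairs was −0.26 and 1.18 for *GCLC* and −1.52 and 0.28 for *GCLM*. The fitted log2 fold changes were 0.46 for *GCLC* (adjusted p = 0.408) and −0.63 for *GCLM* (adjusted p = 0.386, both from edgeR).

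*NQO1* (ENSG00000181019) encodes a quinone reductase that is widely used as a readout of NRF2. Its controls were nearly equal, at 416 and 408 CPM, and the rapamycin libraries lay on either side of them, at 261 in number 1 and 580 in number 2. *OSGIN1* (ENSG00000140961), an oxidative stress-induced growth inhibitor, was measured at 22.4 CPM in control 1 and 9.89 in rapamycin 1, and at 11.4 in control 2 and 22.4 in rapamycin 2, so the pairs were near mirror images. The fitted log2 fold changes, which average the pairs, were −0.08 for *NQO1* and −0.10 for *OSGIN1* (adjusted p = 0.898 and 0.929 from edgeR). The 3′ end of *OSGIN1* overlaps *NECAB2* in the annotation, so reads there may belong to either gene where counting does not use strand.

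*SRXN1* (ENSG00000271303), the sulfiredoxin that restores over-oxidized peroxiredoxins, was counted at 19 and 11 reads in controls 1 and 2 and at 7 and 13 in rapamycin 1 and 2. The start of *SRXN1* overlaps a long non-coding RNA gene in RefSeq, and how counting treated reads in overlapping genes is not stated, so these counts may understate its level. With so few reads its direction could not be resolved (log2 fold change −0.30, standard error 0.75).

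The pairs thus had opposite directions for 5 of the 9 members, all of them lower in number 1 and higher in number 2. Over all tested genes, 30.1% had opposite directions, 16.4% in this order and 13.7% in the reverse, while 66.4% had the same direction in both pairs. The members higher in both pairs numbered 3, against 34.6% of all genes, and 1 was lower in both, against 31.8%. For *NQO1*, *SRXN1* and *OSGIN1* the difference was at least 0.5 on the log2 scale in each pair, an order of that size being found in 2.39% of all genes. Among these, *SRXN1* had only 7 to 19 reads in a library, so its order could not be resolved. The median difference over all genes was 0.0030 in number 1 and 0.03 in number 2 on the log2 scale. The median over the members was −0.67 in number 1 and 0.72 in number 2. Whether the response differed between the numbers was not tested, since each number holds 1 library of each treatment.

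**Figure D2:**
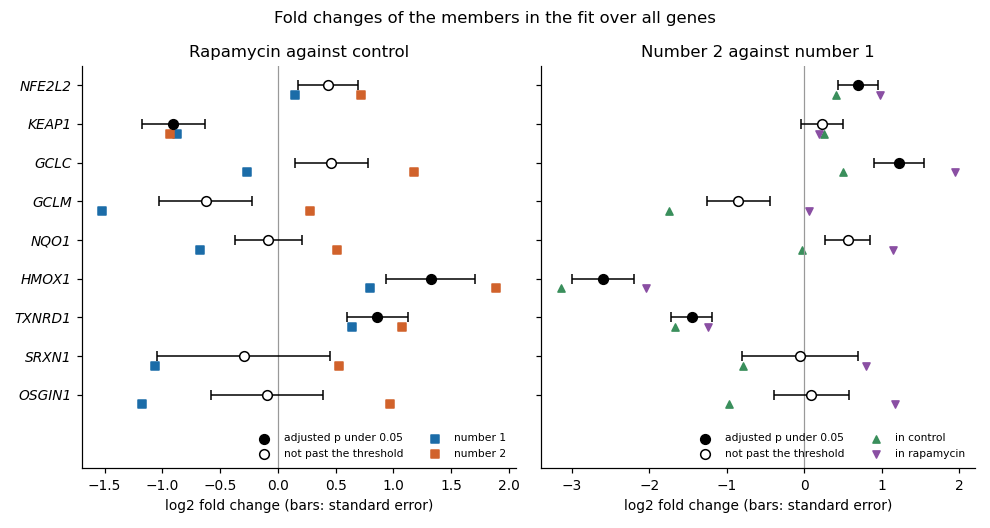
Log2 fold changes of the members from the fit over all genes (circles, filled where the adjusted p is under 0.05, bars showing the standard error), for rapamycin against control on the left and number 2 against number 1 on the right, with the differences within each number or each treatment as small squares and triangles. On the left the squares lie on either side of 0 for 5 members, and on the right the circles of *HMOX1* and *TXNRD1* lie furthest to the left.

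Other genes of the pathway were taken in 8 lists of 76 genes, of which 72 were tested. The lists were chosen with earlier results of these data known, and that of superoxide and peroxide enzymes lies outside the classical NRF2 set. With rapamycin 5 of the 72 genes rose and 1 fell (8.33%, against 8.15% of all genes). *SLC7A11*, the cystine importer that feeds glutathione synthesis, rose from 20.4 to 99.6 CPM in number 1 and from 11.4 to 102 in number 2 (log2 fold change 2.72, standard error 0.30, adjusted p = 6.06e-06 from edgeR). *ABCC3*, an export pump for conjugates, rose by 1.57 on the log2 scale (adjusted p = 0.00165), the haem transporter gene *SLC48A1* by 1.03 (adjusted p = 0.0339) and *CYP4F11*, a fatty acid hydroxylase, by 1.25 (adjusted p = 0.0347), the last of these calls being lost with DESeq2. Among the 14 regulators of NRF2, *MAFK*, a small MAF partner, rose by 0.96 (adjusted p = 0.0272) and *PGAM5*, a mitochondrial phosphatase that binds KEAP1, fell by 0.97 (adjusted p = 0.0226), all from edgeR. The other 12 regulators did not pass, *SQSTM1* (log2 fold change 0.34, adjusted p = 0.447), *CUL3* (−0.52, adjusted p = 0.235) and *BACH1* (0.06, adjusted p = 0.927) among them.

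The order seen in *GCLC*, *GCLM*, *NQO1*, *SRXN1* and *OSGIN1*, lower with rapamycin in number 1 and higher in number 2, was found in 33 of the 72 other pathway genes tested (45.8%, against 16.4% of all genes), and the reverse order in 2. It was the order of 11 of 13 carbonyl and xenobiotic enzymes and of 6 of 7 genes of NADPH supply. Among the latter, *PGD* of the pentose phosphate pathway went from 182 to 150 CPM in number 1 and from 563 to 1279 in number 2. *TKT* and *IDH1* differed by −0.87 and −0.77 in number 1 and by 0.95 and 0.65 in number 2 on the log2 scale. Of the 33 genes, 3 had under 10 counts in both number 1 libraries (*AKR1B10*, *AKR1C2*, *GPX2*) and 30 did not. Only 7 of the 72, these 3 included, had this order by at least 0.5 log2 in each pair, against 2.39% of all genes. In some of the rest 1 difference was near 0, as for *BLVRB* (−0.001 in number 1) and *GSTO1* (0.02 in number 2). The same direction in both pairs was found in 14 of 14 regulators of NRF2, against 66.4% of all genes. The median differences were −0.42 and 0.75 for carbonyl and xenobiotic enzymes and −0.27 and 0.65 for NADPH supply in numbers 1 and 2, and −0.06 and −0.09 for the regulators. These are counts of directions with 1 library on each side, without a test, in lists chosen with earlier results of these data known.

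**Figure D3:**
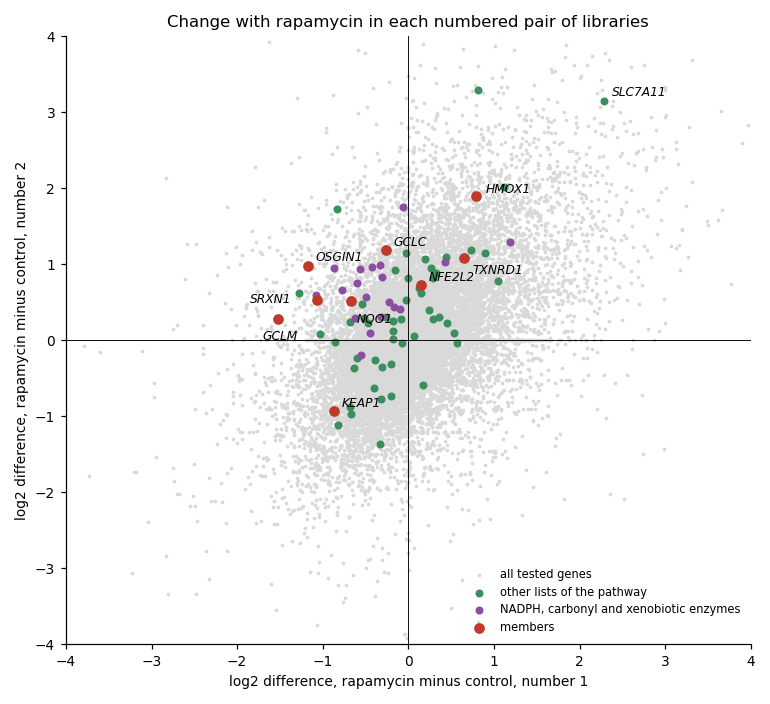
Log2 difference of rapamycin minus control in number 1 (horizontal) and number 2 (vertical) for all tested genes (grey), members (red) and the other pathway lists (green and purple), with 19 genes beyond the axes at 4. The upper left, lower in number 1 and higher in number 2, holds *GCLC*, *GCLM*, *NQO1*, *SRXN1*, *OSGIN1* and most of the purple points.

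Between the numbers, *HMOX1* and *TXNRD1* were lower and *GCLC* and *NFE2L2* were higher in number 2, in control and in rapamycin libraries alike. These 4 of 9 members compare with 37.3% of all tested genes that passed, 17.0% higher and 20.2% lower (edgeR's quasi-likelihood test with treatment in the fit). Mean *HMOX1* was 26.0 CPM in number 1 and 5.01 in number 2, and the fitted difference was 6.04-fold (log2 fold change −2.60, standard error 0.40, adjusted p = 7.79e-06). *TXNRD1* was 2.74-fold lower in number 2 (log2 fold change −1.45, standard error 0.27, adjusted p = 7.6e-05). *GCLC* was 2.35-fold higher (log2 fold change 1.23, standard error 0.32, adjusted p = 0.00645) and *NFE2L2* 1.62-fold higher (log2 fold change 0.70, standard error 0.26, adjusted p = 0.0359). Without either rapamycin library the log2 difference rested on the controls alone and was 0.51 for *GCLC* and 0.41 for *NFE2L2*. Without either control library it rested on the rapamycin libraries alone and was 1.94 and 0.97. The *NFE2L2* call was lost with upper-quartile normalization (adjusted p = 0.0573), with DESeq2 (0.0670) and with at least 10 counts in every library (0.0583). With treatment left out of the fit, 19.3% of all genes passed, 7.85% higher and 11.5% lower, and *HMOX1* was the 1 member that did (adjusted p = 0.0353 from edgeR). Markers of other cell types also differed between the numbers. Of 8 squamous markers 5 were higher and 1 lower in number 2, all 3 endothelial markers were higher (*CDH5* at 19 and 13 counts in number 1 and 607 and 758 in number 2), and 2 of 3 tested fibroblast markers were lower (*PDGFRB* at 224 and 281 counts in number 1 and 0 in number 2). The part of these markers in the member results was not tested.

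The number difference of *KEAP1* was smaller than its standard error (log2 fold change 0.22, standard error 0.27). *GCLM*, *NQO1*, *SRXN1* and *OSGIN1* did not pass, and each had number differences of opposite sign in control and rapamycin libraries. For *GCLM* it was −1.75 in control and 0.06 with rapamycin, and for *NQO1* it was −0.03 and 1.15, on the log2 scale.

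Of the 72 other pathway genes tested, 36 passed between the numbers, 28 higher and 8 lower in number 2, against 37.3% of all genes. Among carbonyl and xenobiotic enzymes 9 of 13 were higher and 1 lower, with a median log2 fold change of 4.18 against −0.03 over all genes. *AKR1C2*, an aldo-keto reductase, had 8 and 4 counts in the number 1 control and rapamycin libraries and 15804 and 20522 in those of number 2, and *AKR1B10* had 1 and 0 against 956 and 1408. *AKR1C1*, *AKR1C2* and *AKR1C3* are similar in sequence, so the division of reads among them is uncertain. *GPX2*, an epithelial glutathione peroxidase, had 3 and 0 counts against 943 and 1121. All 4 of the NADPH supply genes that passed were higher in number 2, *PGD* by 2.36 and *IDH1* by 2.31 on the log2 scale (adjusted p = 3.03e-05 and 2.68e-05 from edgeR). In the reverse direction, *FTL*, the ferritin light chain, fell from 4331 and 4256 CPM in number 1 to 333 and 739 in number 2 (log2 fold change −3.11, adjusted p = 5.25e-08), although it has many processed copies that can share its reads. *GGT1*, which cleaves extracellular glutathione, was lower by −4.86 on the log2 scale (adjusted p = 3.59e-09) and *AKR1B1* by −2.67 (adjusted p = 1.31e-08).

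**Figure D4:**
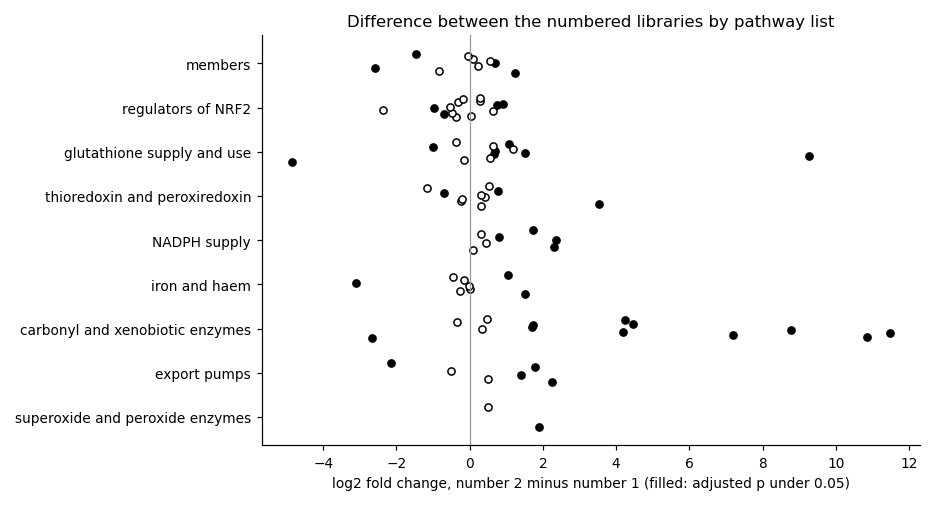
Log2 fold change of number 2 minus number 1 for each tested gene of the members and the 8 pathway lists, filled where the adjusted p is under 0.05. The carbonyl and xenobiotic enzymes reach 11.5 (*AKR1C2*), while the members lie between −2.60 and 1.23.

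The genes whose levels over the 4 libraries were most like those of *HMOX1*, by distance of centred log2 CPM, were *PIK3CD-AS2* (distance 0.10), *ADGRB3* (0.14) and *KLF11* (0.18). The first 2 had at most 29 counts in a library. *KLF11*, a transcription factor gene, had 349 and 46 counts in controls 1 and 2 and 631 and 140 in rapamycin 1 and 2.

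The 4 m6A peak lists held 16 peaks on 5 of the 9 members, 4 in each list, and none was listed on *GCLM*, *NQO1*, *HMOX1* or *TXNRD1*. Over all tested genes, 35.4% had a peak in at least 1 list and 3.61% in every list. Members with a peak numbered 3 in each list except that of CAL33 control cells, which had 4. The share of all tested genes with a peak was 17.6% in HSC3 control, 17.5% in HSC3 rapamycin, 16.1% in CAL33 control and 14.2% in CAL33 rapamycin cells. Peaks are compared by the authors' fold enrichment of immunoprecipitated RNA over input and by its percentile in its own list, since the scaling of each list is not stated. No test was run on these values, since each list rests on 1 library pair and *SRXN1* alone had a value in every list.

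*SRXN1* was the only member with a peak in all 4 lists. Each list held a 3′ UTR peak over a common stretch of 151 bp at chr20:648503-648653 on the minus strand. Its fold enrichment was 15.2 in HSC3 control and 3.19 in HSC3 rapamycin cells, at percentiles 29.8 and 2.54, and 211 in CAL33 control and 163 in CAL33 rapamycin cells, at percentiles 87.6 and 90.3. In HSC3 the log10 p went from −125 to −2.90, and in CAL33 it was −154 and −147. A second 3′ UTR peak was listed in HSC3 control cells (fold enrichment 48.2), HSC3 rapamycin cells (11.8) and CAL33 rapamycin cells (24.1), and the HSC3 peaks did not overlap, with a gap of 29 bp. The RNA-seq count table held 7 to 19 reads on this gene, with the limit given above. Among the 1710 tested genes at a mean of 1 CPM or less, 2.92% had a peak in HSC3 control, 3.22% in HSC3 rapamycin and 1.93% in either CAL33 list, and 3 genes, *SRXN1* included, had one in every list (0.175%).

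*NFE2L2* carried a peak in the coding sequence in 3 of 4 lists, at a different place in each. In HSC3 control cells it lay at chr2:177231500-177231739 with a fold enrichment of 207 (percentile 88.9), and HSC3 rapamycin cells had no peak on the gene. In CAL33 control cells it lay at chr2:177231142-177231321 with a fold enrichment of 123 (percentile 73.8), and in CAL33 rapamycin cells at chr2:177230902-177231142 with 4.17 (percentile 5.07). The CAL33 peaks shared 1 bp. In CAL33 the control peak thus had the higher fold enrichment, and in HSC3 the control list alone held one.

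*KEAP1* carried a 3′ UTR peak in the same 3 lists. Its fold enrichment was 7.48 in HSC3 control cells and 4.26 in CAL33 control cells, where the peaks overlapped by 30 bp, and 58.9 in CAL33 rapamycin cells at chr19:10486120-10486269, with a gap of 298 bp to the CAL33 control peak. The percentiles were 12.2, 5.53 and 63.7 in the same order. This last peak reaches past the 3′ end of the gene in RefSeq.

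*GCLC* had a 3′ UTR peak in CAL33 control cells (fold enrichment 5.11) and another in HSC3 rapamycin cells (10.9), 59 bp apart. *OSGIN1* had 1 peak, in the coding sequence in HSC3 rapamycin cells (fold enrichment 24.6, log10 p −4.92), where the annotation also places *NECAB2*. Of the 8 rapamycin peaks on members, 1 in HSC3 and 2 in CAL33 overlapped a control peak of the same gene and cell line by at least 1 bp, where 28.2% of all rapamycin peaks in HSC3 and 29.9% in CAL33 did so.

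**Figure D5:**
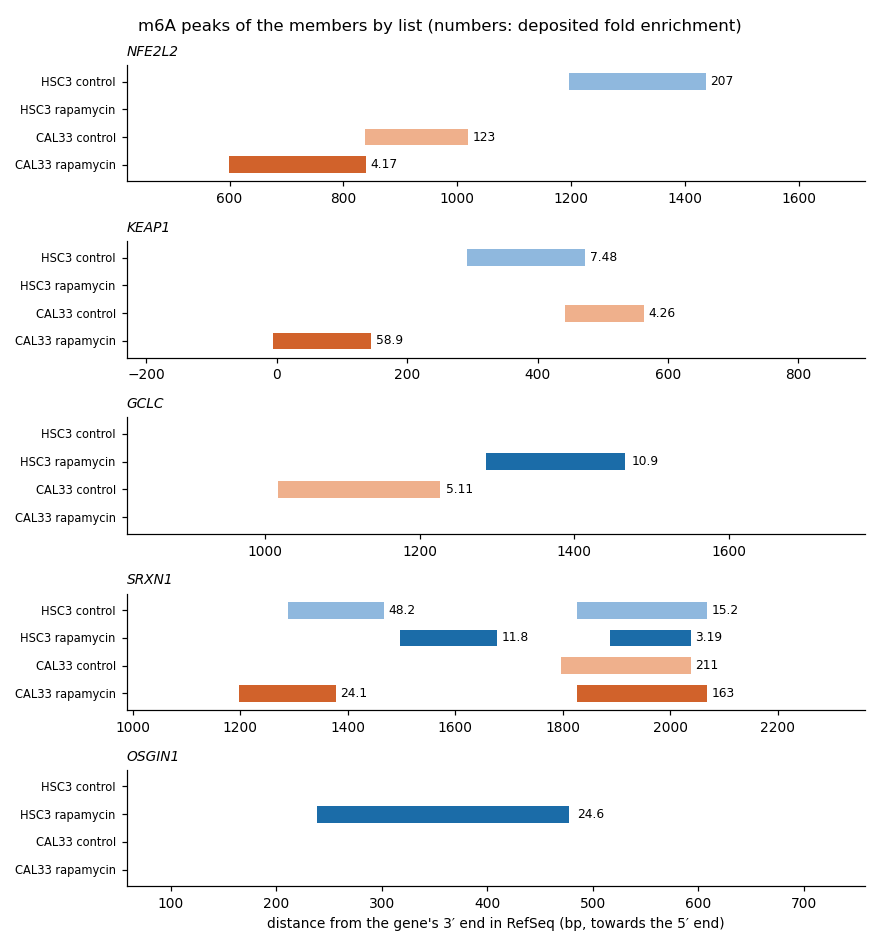
Position of each m6A peak on the 5 members that had one, as distance in bp from the 3′ end of the gene in RefSeq, by peak list, with the deposited fold enrichment beside each bar. The *SRXN1* peaks on the right lie over one another in all 4 lists, whereas those of *NFE2L2* lie at different places.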

How the data were processed

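RNA-seq and MeRIP-seq values were used as deposited. The deposited count table holds unnormalized reads for each gene. The deposited peak lists, 1 for each MeRIP-seq pair, hold a ratio over input (fold enrichment), a p-value, and a log10 p-value and log10 false discovery rate. The submitters' processing notes name hg38, cutadapt 2.5, HISAT2 2.1.0, featureCounts 1.6.3 and HOMER 4.10.4. The peak caller, its settings and whether counting used strand are not given in the sources used here. The depth behind the peaks is unknown.

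Symbols were matched for 57532 of 58302 identifiers. Tests were run with edgeR 4.0.16 in R 4.3.3 (filterByExpr, TMM, quasi-likelihood test with robust dispersion, Benjamini-Hochberg adjustment at 0.05), with number and treatment in the fit, since the libraries were to be paired by number. CPM are scaled by TMM, and log2 differences within a pair use a prior count of 2. The number difference in rapamycin libraries correlated with that in controls across genes (r = 0.90). Alternatives were no block, DESeq2 1.42.0, upper-quartile and relative log expression normalization, other filters and libraries left out. Peaks overlapped when they shared at least 1 bp over exonic blocks on the same strand (Python 3.11.15). Positions count from 1.

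The members and lists were chosen with earlier results of these data known. Named are all members, up to 2 genes per list and direction that passed the threshold in the same direction in both pairs (for the numbers, in both treatments), and the 3 genes most like the member with the largest change; any other gene was chosen after its values were seen. The 8 lists are regulators of NRF2, glutathione supply and use, thioredoxin and peroxiredoxin, NADPH supply, iron and haem, carbonyl and xenobiotic enzymes, export pumps, and superoxide and peroxide enzymes. Marker lists covered squamous epithelium, leukocytes, endothelium and fibroblasts. No genome was used, so m6A motifs under the peaks were not searched.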

Additional observations from a re-analysis of the deposited data

Results flagged for a closer look

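For 5 members the control to rapamycin change had opposite directions in the numbered pairs. On the log2 scale (rapamycin minus control) *GCLC* was −0.265 in number 1 and 1.18 in number 2, *GCLM* −1.52 and 0.282, *NQO1* −0.672 and 0.509, *SRXN1* −1.07 and 0.528, and *OSGIN1* −1.17 and 0.975. The difference between the numbers was not tested, and *SRXN1* had only 7 to 19 reads in a library. Of all tested genes, 30.1% had opposite directions in the pairs. *OSGIN1* had the largest gap between the pairs of these 5 members, and 2.80% of all tested genes had a gap at least as large. The same share was 7.05% for *SRXN1*, 9.05% for *GCLC* and 14.5% for *NQO1*, with *GCLM* between *OSGIN1* and *SRXN1*. These shares are a description of these libraries.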

How the results depend on the processing

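Without the replicate block, 0 genes and 0 members passed between treatments (edgeR, 446 genes at an unadjusted p under 0.05), against 1290 and 3 with it (adjusted p = 0.9997 for *HMOX1*, *TXNRD1* and *KEAP1*), and 3057 genes and 1 member passed between the numbers, against 5899 and 4. *NQO1* changed sign between treatments without the block, to 0.0301. DESeq2 called 818 genes between treatments (3682 had no adjusted p), and a minimum of 10 counts in every library left 3927 calls between the numbers. With no filter, *GCLM* also passed between the numbers (adjusted p = 0.0242). An overlap of 50% of the shorter peak left 1 shared member peak in CAL33, the 1 bp of *NFE2L2* being lost. The causes were not tested.

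With 1 library left out the blocked fit has no residual degrees of freedom, so values carry no test and no calls were counted. Between treatments, each value then rests on 1 numbered pair, so it repeats the difference within that pair and adds no check. The direction was the same in both pairs for *HMOX1* (0.80 to 1.97), *TXNRD1* (0.65 to 1.10), *KEAP1* (−0.94 to −0.87) and *NFE2L2* (0.15 to 0.75), and not for the other 5. Between the numbers, each value likewise repeats the difference within 1 treatment. The direction was the same in both treatments for 5 of 9, *HMOX1* (−3.19 to −2.06), *TXNRD1* (−1.67 to −1.25), *GCLC* (0.51 to 1.94), *NFE2L2* (0.41 to 0.97) and *KEAP1*. The *SRXN1* values rest on few reads, and the depth of the MeRIP-seq libraries is unknown.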

Other observations

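In the thioredoxin and peroxiredoxin list no gene of 10 passed with rapamycin (edgeR, with the number as a block, and 0 at an unadjusted p under 0.05), while DESeq2 called 1, *TXNIP*. The median log2 fold change of the list was −0.13 against 0.05 over all genes. *TXNIP*, which encodes an inhibitor of thioredoxin and was chosen after its values were seen, stood at 46.6 CPM in control 1 and 627 in rapamycin 1, and at 6.46 in control 2 and 834 in rapamycin 2. Its log2 difference was 3.75 in number 1 and 6.99 in number 2, and its adjusted p was 0.369 with a standard error of 1.71. *MAFF*, a small MAF gene also chosen after its values were seen, differed by 0.81 in number 1 and 3.29 in number 2 (adjusted p = 0.299 from edgeR, called by DESeq2). *FTH1*, the ferritin heavy chain, differed by −0.16 and 0.92 and did not pass. In the lists of glutathione supply and use, of iron and haem and of export pumps 1 gene each rose with rapamycin and none fell, of 12, 8 and 6 tested (*SLC7A11*, *SLC48A1* and *ABCC3*). No gene passed in the list of NADPH supply (1 at an unadjusted p under 0.05, 0 with DESeq2) or among the 2 tested superoxide and peroxide enzymes (0 at an unadjusted p under 0.05, 0 with DESeq2). Between the numbers, *CAT*, catalase, was higher in number 2 by 1.90 on the log2 scale (adjusted p = 2.57e-05 from edgeR). *ABCC1*, an export pump, was higher in number 2 by 2.24 (adjusted p = 1.13e-07 from edgeR).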
